A study of Mus musculus with 20 samples.

Results

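N-acetylcysteine (NAC) was examined for its effect on RNA levels in a calf muscle, the gastrocnemius, of male C57BL/6N mice. The effect was taken over all 20 of the study's 20 libraries, 10 with NAC set against 10 without it. The libraries with NAC were 5 labelled NAC and 5 labelled TM+NAC, which received NAC and tetrathiomolybdate (TM, a copper chelator) together, and those without were 5 labelled TM and 5 labelled Control. The NAC, TM+NAC and TM labels give 28 days of treatment, the Control label gives no treatment and no time, and none of the groups is labelled with a genetic change. Dose, route and age are not given in the labels. The NAC effect was fitted with TM as an additive term, so that NAC libraries were weighed against Control and TM+NAC libraries against TM. Tests covered 9696 of 31618 genes, those whose FPKM (fragments per kilobase of transcript and per M, 1e+06, of mapped fragments) averaged 1 or more across all 20 libraries. The account is of genes whose NAC fold had the same sign without TM (NAC against Control) and with TM (TM+NAC against TM), 2 comparisons that share no library. This held for 3841 of 9696 tested genes (39.6%), of which 1953 were higher with NAC in both (20.1%) and 1888 lower in both (19.5%). The majority of tested genes thus had folds of opposite sign in the comparisons, so this count by itself does not show a shared NAC effect.

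NAC enters cells and is deacetylated to cysteine, the limiting amino acid for glutathione, the main small thiol of the cell. Its use as an antioxidant rests on this supply and on its own thiol. Cells meet oxidants with the glutathione and thioredoxin systems, with superoxide dismutases and catalase, and with the transcription factor NRF2 (Nfe2l2), which is held down by Keap1 and switches on genes for glutathione synthesis, NADPH supply and detoxification. Working muscle makes oxidants steadily, and its mitochondria and contractile proteins respond to the redox state of the fibre.

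Library totals ran from 54.7 to 90.7 M counts, with a median of 63.3 M. The markers of fast skeletal muscle were high in every library, with Acta1 at 10025 to 16872 FPKM and Myh4 at 5756 to 9815 FPKM. Transcripts of brain tissue were present at low level in most treated libraries, as the summed level of 16 brain-restricted genes shows. This sum was 4.53 to 107 counts per M (CPM) in NAC, 82.4 to 118 in TM+NAC, 7.17 to 70.2 in TM and 6.07 to 10.9 in Control libraries. NAC 4 (4.53) lay below the Control range and TM 1 (7.17) within it, and the other 13 treated libraries lay above it. The brain sum was thus mostly higher with NAC in both comparisons. Its part in the results was not tested further than by fits with this sum as a term and a fit on those 13 libraries with brain transcripts. In the fits with the term, the sum and NAC are hard to tell apart, above all without TM. Their folds lean on NAC 4 and TM 1, the only treated libraries with a low sum. In a bulk sample, fewer cells of a type and less RNA per cell cannot be told apart. Since no label ties a library to an animal of its own, p-values cover only the spread among libraries, part of which may be technical. Levels below are in CPM after TMM scaling (trimmed mean of M values), in the order of libraries 1 to 5, and folds are log2 ± standard error.

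Pooled over TM, 4 genes were higher with NAC and 0 were lower at a Benjamini-Hochberg adjusted p under 0.05 (edgeR quasi-likelihood test, 0.0413% of tested genes higher and 0% lower). They were Enpp2, Gpm6b, Chd3 and Ttr. All 4 had the same sign with and without TM, a property that the selection by pooled p partly sets. At an unadjusted p under 0.05, 286 genes were higher (2.95%) and 291 lower (3%), 577 together (5.95%), and 567 of the 577 had the same sign in both comparisons. DESeq2 on the same counts called 33 genes higher and 7 lower, among them the same 4. Without NAC 4, the fit called 41 genes higher and 2 lower, again with these 4 among them, and without 1 of 12 other libraries in turn Enpp2 was the only call. Taken alone, the comparison without TM passed 20 genes higher (0.206%) and 1 lower (0.0103%), and the comparison with TM passed 3 higher (0.0309%) and 0 lower, where DESeq2 called 7 higher and 12 lower. The median standard error of the pooled log2 fold was 0.09.

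Enpp2 encodes autotaxin, a secreted enzyme that makes the signalling lipid lysophosphatidic acid, and its gene lies on chromosome 15 at 54838901 to 54920125 on the minus strand of GRCm38. It was at 16.2, 17.2, 18.6, 20.6 and 15.9 CPM in NAC libraries, against 14.04, 14.5, 13.3, 12.5 and 11.7 CPM in Control libraries. With TM present, the levels were 23.6, 18.7, 20.8, 21.8 and 22.9 CPM in TM+NAC libraries and 16.1, 15.8, 15.9, 15.9 and 13.1 CPM in TM libraries. Every NAC library lay above every Control library and every TM+NAC library above every TM library. The pooled log2 fold was 0.46 ± 0.06 (adjusted p = 0.00345), with 0.42 ± 0.09 without TM and 0.49 ± 0.09 with TM, and the difference between these was 0.07 (adjusted p = 0.839). Enpp2 passed in each of 20 fits that left out 1 library, where its adjusted p ran from 0.00233 to 0.0117. It also passed with the brain sum as a term (0.57, adjusted p = 0.00232), a fit that leans on NAC 4 and TM 1. NAC 4, the NAC library with few brain transcripts, had the highest Enpp2 level of its group (20.6 CPM), and TM 1 had the highest of the TM group (16.1 CPM). Antisense transcript Gm26684 overlaps 6.0% of its exon bases, and the sources used here do not say whether counting used the strand.

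**Figure D1:**
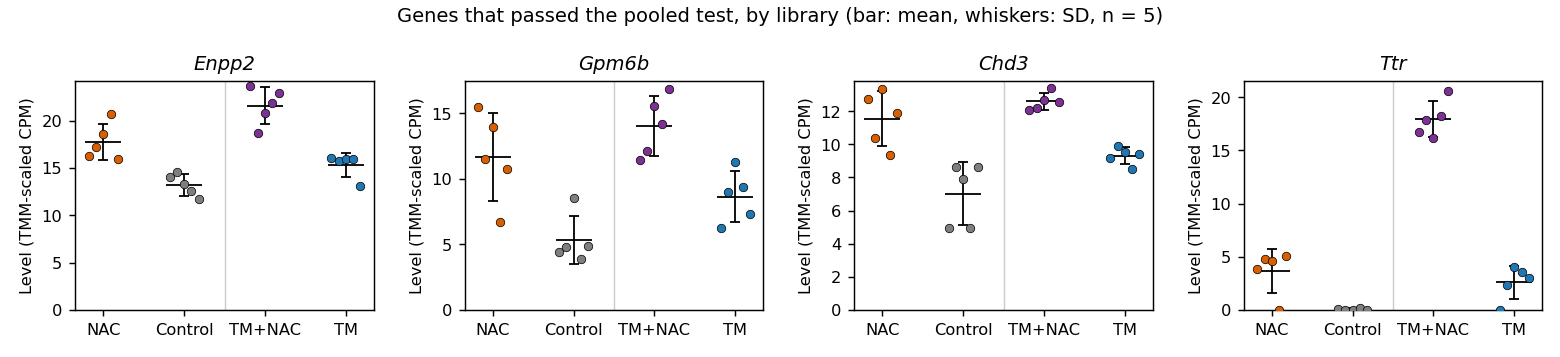
Level (TMM-scaled CPM) of the 4 genes that passed the pooled test in each of the 20 libraries, with mean and SD (n = 5) per group, in the order NAC, Control, TM+NAC and TM. The NAC points of Enpp2 and Chd3 lie above all Control points and the TM+NAC points above all TM points, while Ttr is listed at 0 in NAC 4 and TM 1.

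Chd3 encodes an ATPase of the NuRD chromatin remodelling complex and lies on chromosome 11 at 69343273 to 69364779 on the minus strand. The gene was at 12.7, 10.4, 13.3, 9.33 and 11.9 CPM in NAC libraries, against 4.94, 8.62, 7.88, 4.96 and 8.64 CPM in Control libraries. It was at 12.1, 12.2, 12.7, 13.4 and 12.5 CPM in TM+NAC libraries, against 9.18, 9.87, 9.54, 8.54 and 9.44 CPM in TM libraries. Here too neither pair of groups overlapped, and Control 1 and Control 4 were the lowest of all libraries. Pooled, the log2 fold was 0.58 ± 0.10 (adjusted p = 0.0379), with 0.72 ± 0.14 without TM and 0.44 ± 0.14 with TM. The call held in 4 of 20 fits that left out 1 library (without Control 4, TM 3, NAC 4 or TM+NAC 1), with adjusted p from 0.0101 to 0.104, and was lost with the brain sum as a term (0.41, adjusted p = 0.20). In NAC 4, which has few brain transcripts, the level was 9.33 CPM, the lowest of its group and above the highest Control library (8.64 CPM). The part of the brain transcripts in the Chd3 difference was not tested further.

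Gpm6b encodes a membrane glycoprotein of the proteolipid family, abundant in neurons and glia, and lies on chromosome X at 166238911 to 166388988 on the plus strand. Its levels were 15.5, 11.5, 13.98, 6.72 and 10.8 CPM in NAC libraries and 4.45, 4.81, 8.56, 3.89 and 4.89 CPM in Control libraries. They were 11.5, 12.1, 15.5, 14.2 and 16.8 CPM in TM+NAC libraries and 6.26, 8.99, 11.3, 9.40 and 7.30 CPM in TM libraries. NAC 4 (6.72 CPM) lay below Control 3 (8.56 CPM), and the other NAC libraries lay above all Control libraries, as TM+NAC libraries did above all TM libraries. The pooled log2 fold was 0.91 ± 0.16 (adjusted p = 0.0379), and with the brain sum as a term it was 0.48 (adjusted p = 0.213). In the 13 libraries with brain transcripts, TM+NAC against TM, the Gpm6b fold was 0.60 and did not pass (adjusted p = 0.177). The call held in 6 of 20 fits that left out 1 library (without Control 3, Control 4, TM 3, TM 4, NAC 4 or TM+NAC 1), with adjusted p from 0.00414 to 0.103. Ttr encodes transthyretin, a carrier of thyroid hormone and retinol-binding protein made by the liver and the choroid plexus, and lies on chromosome 18. It was at 3.80, 4.79, 4.59, 0 and 5.05 CPM in NAC libraries, against 0.106, 0, 0, 0.181 and 0 CPM in Control libraries. With TM present it was at 16.7, 17.9, 16.2, 18.2 and 20.5 CPM in TM+NAC libraries, against 0, 2.36, 4.02, 3.53 and 3.01 CPM in TM libraries. Both libraries with few brain transcripts in their groups, NAC 4 and TM 1, were listed at 0, and all TM+NAC libraries lay above all others. Its pooled log2 fold was 3.68 ± 0.66 (adjusted p = 0.0379), and with the brain sum as a term it was 1.47 (adjusted p = 0.198). The call held in 4 of 20 fits that left out 1 library (without TM 1, TM 3, NAC 4 or TM+NAC 1), with adjusted p from 0.00233 to 0.103. Among the 13 libraries with brain transcripts, where no Control library is left and the NAC effect is that of TM+NAC against TM, the Ttr fold was 2.47 (adjusted p = 4.43e-07).

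Enpp2 and Ttr are both members of the choroid plexus list, of which 3 of 12 genes passed the filter. Both are among the 4 genes called in the pooled test (0.0413% of all tested genes), all of which were higher. The third, Aqp1, which muscle capillaries also express, was at 270 to 324 CPM in NAC and 288 to 318 CPM in Control libraries. The other 9 members lay under the filter, at no more than 1.28 CPM in any library (Sostdc1 in TM 4). Among these, Prlr, the prolactin receptor, chosen after its values were seen, was at 0.217 to 0.499 CPM in NAC and 0 to 0.211 CPM in Control libraries, and at 0.297 to 0.456 CPM in TM+NAC and 0 to 0.113 CPM in TM libraries. Every library with NAC lay above every library without it, NAC 4 highest of all, and in the fit with no filter Prlr did not pass (adjusted p = 0.171). The gap was narrow, from 0.211 CPM in Control 3 to 0.217 CPM in NAC 2. How many other genes under the filter separate in this way was not counted. The folate receptor Folr1 was at 0 to 0.337 CPM in NAC and 0 to 0.116 CPM in Control libraries, and at 0.165 to 0.367 CPM in TM+NAC and 0 to 0.285 CPM in TM libraries, which overlapped. The summed level of the list was 293 to 347 CPM in NAC and 303 to 334 CPM in Control libraries, and 334 to 378 CPM in TM+NAC and 247 to 374 CPM in TM libraries, nearly all of it Aqp1. NAC 4 held 0 CPM of Ttr and the highest Enpp2 level of the NAC group.

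Meg3, a long noncoding RNA transcribed from the maternal copy of an imprinted locus, was the next by separation. It was at 55.9, 50.1, 55.4, 28.2 and 56.6 CPM in NAC libraries, against 27.5, 23, 24.9, 16.9 and 24 CPM in Control libraries. It was at 42.1, 47.8, 45.1, 43.5 and 58.4 CPM in TM+NAC libraries, against 31.1, 38.5, 40.4, 40.5 and 37.7 CPM in TM libraries. All NAC libraries lay above all Control libraries and all TM+NAC libraries above all TM libraries. The pooled log2 fold was 0.71 ± 0.14 and did not pass (adjusted p = 0.0573). It was 1.08 ± 0.16 without TM and 0.33 ± 0.16 with TM, a difference of -0.75 (adjusted p = 0.597). NAC 4 (28.2 CPM) stood far below its group and near Control 1 (27.5 CPM), and with the brain sum as a term the fold was 0.25 (adjusted p = 0.267). Enpp2, Chd3 and Meg3 were the 3 genes of 9696 (0.0309%) that were separated in this way in both comparisons on the high side, and 0 genes were on the low side. For comparison, NAC lay wholly above Control in 30 genes (0.309%) and TM+NAC wholly above TM in 93 genes (0.959%). In 0 tested genes did all 10 libraries with NAC lie beyond all 10 without.

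Genes with the brain pattern were on the high side, as their selection largely sets. Of the tested genes, 16 (0.165%) were over 1.5-fold higher in each of the 13 libraries with brain transcripts than in any of the other 7, and all 16 were higher with NAC in both comparisons. Those 13 libraries hold 9 of the 10 with NAC and none of Control. Their median log2 fold was 3.05 without TM, 0.73 with TM and 1.84 pooled. Kif5a, a neuronal kinesin that carries cargo along axons, showed the pattern. It was at 21.2, 14.9, 18.8, 0.563 and 17.4 CPM in NAC libraries, against 0.600, 0.815, 0.934, 0.779 and 1.12 CPM in Control libraries. The levels were 15.2, 16.97, 17.7, 13.9 and 21.4 CPM in TM+NAC libraries and 0.901, 9.94, 13, 12.5 and 12.6 CPM in TM libraries. NAC 4 was below every Control library and TM 1 was within the Control range. Its pooled log2 fold of 2.28 ± 0.59 did not pass (adjusted p = 0.239). Among 7 tested neuronal genes 6 were higher in both comparisons, as were all 6 of Schwann cells and peripheral nerve, all 4 of oligodendrocytes and 4 of 7 of astrocytes (2 lower in both), against 20.1% of all tested genes, with 0 of these passing the test. Of the 286 genes higher at an unadjusted p under 0.05, 270 did not show the brain pattern, which is a strict rule. Gpm6b and Meg3 did not meet it, though their folds fell with the brain sum as a term. How many of the 270 follow the brain sum was not counted.

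**Figure D2:**
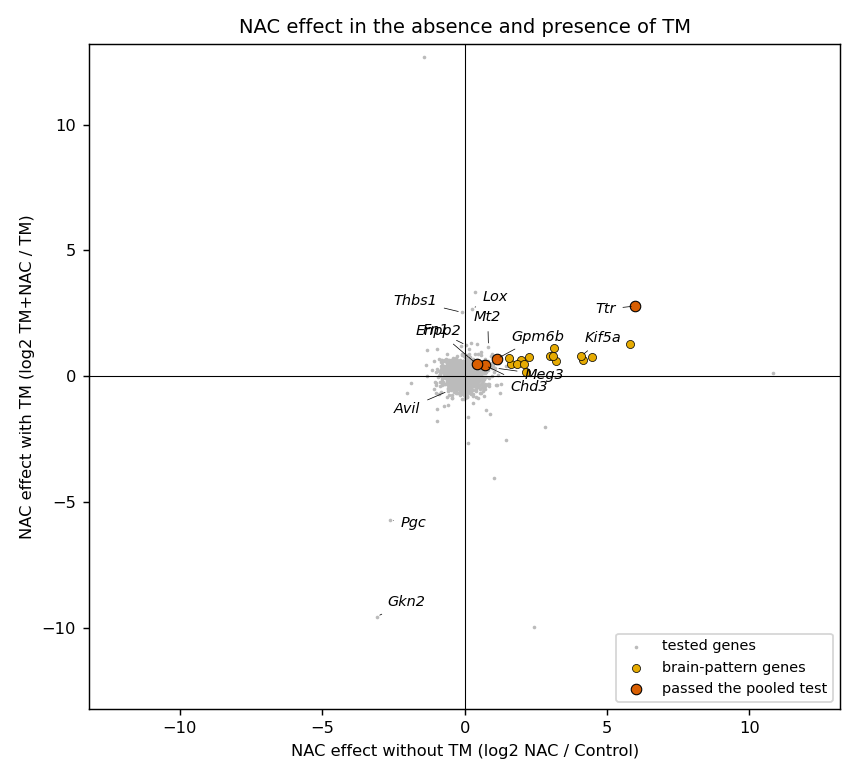
Each point is a tested gene, with the log2 fold of NAC over Control on the x axis and of TM+NAC over TM on the y axis. The 16 brain-pattern genes (yellow, or orange for Ttr) lie right of 0 and above 0, and most are much farther from 0 on the x axis than on the y axis. Enpp2 has nearly the same fold on both axes, and Lox and Thbs1 are far from 0 on the y axis only.

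Other genes on the high side came close to the threshold with both comparisons much alike. These genes were chosen after their values were seen. Fgf7, a growth factor that mesenchymal cells send to epithelia, was at 4.80, 4.79, 4.33, 7.08 and 3.84 CPM in NAC libraries, against 3.53, 3.09, 3.97, 4.51 and 3.18 CPM in Control libraries. It was at 4.58, 4.86, 5.76, 4.62 and 5.32 CPM in TM+NAC libraries, against 3.56, 3.41, 3.36, 2.51 and 2.98 CPM in TM libraries. Only the pair with TM was free of overlap, since NAC 5 and NAC 3 lay below Control 4. Its log2 fold was 0.56 ± 0.11 and did not pass (adjusted p = 0.0620). It passed with the brain sum as a term (0.82, adjusted p = 0.00354), a fit that leans on NAC 4, its highest library. It also passed with DESeq2 (adjusted p = 0.00164). Arl6ip1, a membrane protein that shapes the endoplasmic reticulum, had a log2 fold of 0.33 ± 0.06 (adjusted p = 0.0573), with 0.32 without TM and 0.33 with TM. With the brain sum as a term it was 0.36 (adjusted p = 0.103). Its levels were 11.2, 10.4, 10.9, 13.02 and 12.7 CPM in NAC and 8.39, 10.4, 9.23, 8.73 and 9.74 CPM in Control libraries, and 11.2, 12.4, 11.3, 11.2 and 13.5 CPM in TM+NAC and 9.14, 9.24, 9.54, 10.9 and 8.54 CPM in TM libraries. NAC 4 had the highest level of the NAC group. Stmn1, which takes microtubules apart, had a log2 fold of 0.87 ± 0.17 (adjusted p = 0.0573), and 0.71 with the brain sum as a term (adjusted p = 0.198). Synj1, a phosphoinositide phosphatase of vesicle recycling, had one of 0.38 ± 0.08 (adjusted p = 0.0679), and 0.28 with that term (adjusted p = 0.213).

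Metallothioneins are small cysteine-rich proteins that bind zinc and copper, and their genes are switched on by metals through the factor MTF1, by glucocorticoids and by oxidants. Mt2 was at 7.11, 3.09, 5.89, 2.09 and 2.12 CPM in NAC libraries, against 1.85, 1.41, 2.19, 3.73 and 2.17 CPM in Control libraries. It was at 3.94, 4.32, 5.11, 5.05 and 8.43 CPM in TM+NAC libraries, against 2.42, 2.87, 2.27, 2.83 and 1.43 CPM in TM libraries. All TM+NAC libraries lay above all TM libraries, whereas 2 NAC libraries lay above all Control libraries and the other 3 overlapped them. For Mt2 the pooled log2 fold was 1.01 ± 0.23 and did not pass (adjusted p = 0.161), with 0.84 ± 0.33 without TM and 1.18 ± 0.33 with TM. Mt1 was at 10.4, 8.74, 10.4, 4.08 and 5.00 CPM in NAC and 5.37, 5.87, 5.30, 11.1 and 6.47 CPM in Control libraries, and at 8.16, 9.99, 11.03, 9.62 and 13.98 CPM in TM+NAC and 5.71, 7.56, 5.26, 6.61 and 5.72 CPM in TM libraries. Control 4 held the highest Mt1 level of the first pair, and TM+NAC lay wholly above TM. The Mt1 fold was 0.48 ± 0.18 (adjusted p = 0.672). Mtf1 (-0.0036 ± 0.08) and the zinc exporter Slc30a1 (0.11 ± 0.10) were the other tested members. An antisense gene, Gm45774, covers 73.5% of the Mt2 exon bases, and with the strand setting of the counts not given its reads and those of Mt2 cannot be told apart.

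The Mt2 promoter is shown because its metal response elements are the textbook switch of this gene, with 250 bases before and 50 after the start of the gene in RefSeq (GRCm38.p6, chr8:94172368-94172667, plus strand). Capitals mark matches to the metal response element core, TGCACNC or TGCGCNC, on either strand.
Mt2: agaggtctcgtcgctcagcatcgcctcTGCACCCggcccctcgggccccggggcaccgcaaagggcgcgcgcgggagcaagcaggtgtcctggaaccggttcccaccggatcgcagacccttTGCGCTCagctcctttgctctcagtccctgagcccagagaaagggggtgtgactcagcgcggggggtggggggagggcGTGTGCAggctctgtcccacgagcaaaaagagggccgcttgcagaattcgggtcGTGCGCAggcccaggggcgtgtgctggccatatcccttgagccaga
The stretch holds 4 matches, none overlapping another. A match occurs at least once in 25.7% of 32851 promoters of this length. The Mt1 promoter holds 3.

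Circadian clock genes lay in much the same arrangement in both comparisons, though none passed. In the clock, Arntl (BMAL1) and Clock drive E-box genes, among them the repressors Per1, Per2, Per3, Cry1, Cry2 and Ciart and the output factors Dbp, Tef and Hlf, while Nr1d1 (REV-ERBα) holds Arntl down and Nfil3 opposes Dbp, Tef and Hlf at D-boxes. Of 20 listed genes 19 were tested, and 10 had an unadjusted p under 0.05, against 5.95% of all tested genes. These were 7 higher (Per2, Ciart, Per1, Dbp, Hlf, Per3 and Tef) and 3 lower (Nfil3, Arntl and Nr1d1), with adjusted p from 0.242 to 0.783, and all 10 had the same sign with and without TM, as did 567 of the 577 tested genes at that p. The median pooled log2 fold of the 19 was 0.09, against -0.00043 over all tested genes, and it ran from 0.04 without Control 2 to 0.15 without Control 4. Within groups, the list median varied between libraries with an SD of 0.09 on the log2 scale, so the members' folds are not independent of one another. The labels give no hour of collection for any library.

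**Figure D3:**
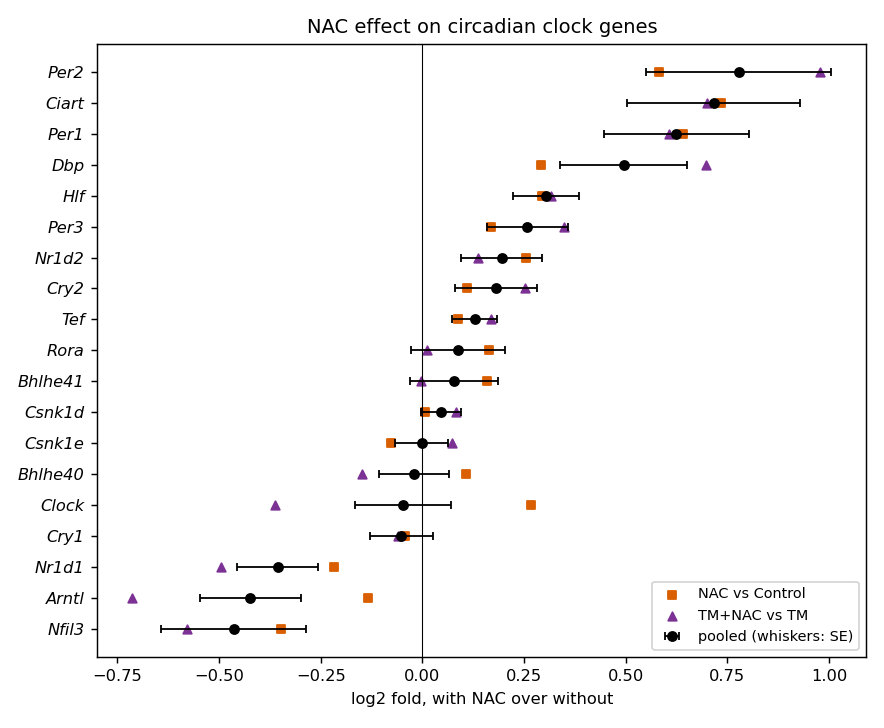
Pooled NAC log2 fold with its standard error (black) for the 19 tested clock genes, with the fold of NAC over Control (orange squares) and of TM+NAC over TM (purple triangles). Period genes, Ciart, Dbp and Hlf lie right of 0 and Nr1d1, Arntl and Nfil3 left of it in both comparisons, while Clock has opposite signs in them.

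Among the repressors, Per1 was at 37.8, 36.8, 34.7, 24.4 and 15.01 CPM in NAC libraries, against 14.6, 16.5, 20.8, 20.3 and 23.1 CPM in Control libraries. It was at 12.1, 21.7, 34.8, 29.9 and 17.4 CPM in TM+NAC libraries, against 11.3, 18.1, 12.6, 18.6 and 15.4 CPM in TM libraries. Above the highest Control library lay 4 NAC libraries, and above the highest TM library lay 3 TM+NAC libraries, for a pooled log2 fold of 0.62 ± 0.18 (adjusted p = 0.29). Per2 was at 22.7, 10.9, 9.61, 13.8 and 10.6 CPM in NAC libraries, against 5.77, 4.34, 7.52, 19.5 and 8.06 CPM in Control libraries. It was at 11.2, 11.2, 14.9, 16.6 and 14.7 CPM in TM+NAC libraries, against 6.47, 3.82, 8.48, 7.89 and 8.22 CPM in TM libraries. TM+NAC lay wholly above TM, and NAC wholly above Control apart from Control 4, which at 19.5 CPM stood far from its group. The pooled fold was 0.78 ± 0.23 (adjusted p = 0.303), and it passed in 1 of the 20 fits that left out a library (adjusted p 0.0413 to 0.57). Ciart was at 4.43, 5.58, 3.01, 3.96 and 4.00 CPM in NAC and 1.80, 2.10, 2.71, 3.77 and 2.24 CPM in Control libraries, and at 2.09, 3.70, 3.19, 3.91 and 4.31 CPM in TM+NAC and 1.15, 1.17, 3.68, 3.16 and 1.43 CPM in TM libraries. The groups overlapped in both pairs, and the fold was 0.73 without TM and 0.70 with TM. Per3 had a pooled fold of 0.26 ± 0.10 with Control 4 again the highest of its group (31.7 CPM). Cry1 (-0.05 ± 0.08) and Cry2 (0.18 ± 0.10) had smaller folds.

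The output factors Dbp, Hlf and Tef had pooled folds of 0.49 ± 0.16, 0.30 ± 0.08 and 0.13 ± 0.06. For Hlf, TM+NAC libraries (16.4, 16.2, 17.2, 16.8 and 19.5 CPM) lay above all TM libraries (12.1, 12.7, 16, 14.9 and 13.5 CPM), and NAC libraries (17.1, 20.4, 15.99, 18.9 and 20.3 CPM) overlapped Control libraries (16.6, 10.3, 16.1, 16.9 and 15.8 CPM). Hlf had the smallest p of the list (adjusted p = 0.242). Sphk2, a tested gene on the opposite strand, overlaps 18% of the Dbp exon bases. On the low side, Nr1d1 was at 122.97, 143, 147, 87.1 and 138 CPM in NAC libraries, against 160, 177, 170, 102 and 132 CPM in Control libraries. It was at 118, 115, 127, 104 and 109 CPM in TM+NAC libraries, against 143, 183, 161, 165 and 158 CPM in TM libraries. The pair with TM did not overlap and the pair without TM did, with NAC 4 the lowest of all. The Nr1d1 fold was -0.36 ± 0.10 (adjusted p = 0.269). It passed with the brain sum as a term (-0.61, adjusted p = 0.0377), a fit that leans on NAC 4. Arntl, which Nr1d1 represses, was also on the low side, at 16.1, 19.9, 30.3, 26.2 and 21.6 CPM in NAC and 28.3, 26.97, 25.2, 19.8 and 24.98 CPM in Control libraries, and at 19.8, 18.9, 17.5, 21.6 and 15.2 CPM in TM+NAC and 35.2, 37, 24.9, 24.6 and 30.8 CPM in TM libraries. Its fold was -0.13 without TM and -0.71 with TM (adjusted p of the difference = 0.597), and only the pair with TM was free of overlap. Nfil3 had a pooled fold of -0.46 ± 0.18 with overlapping groups in both pairs.

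**Figure D4:**
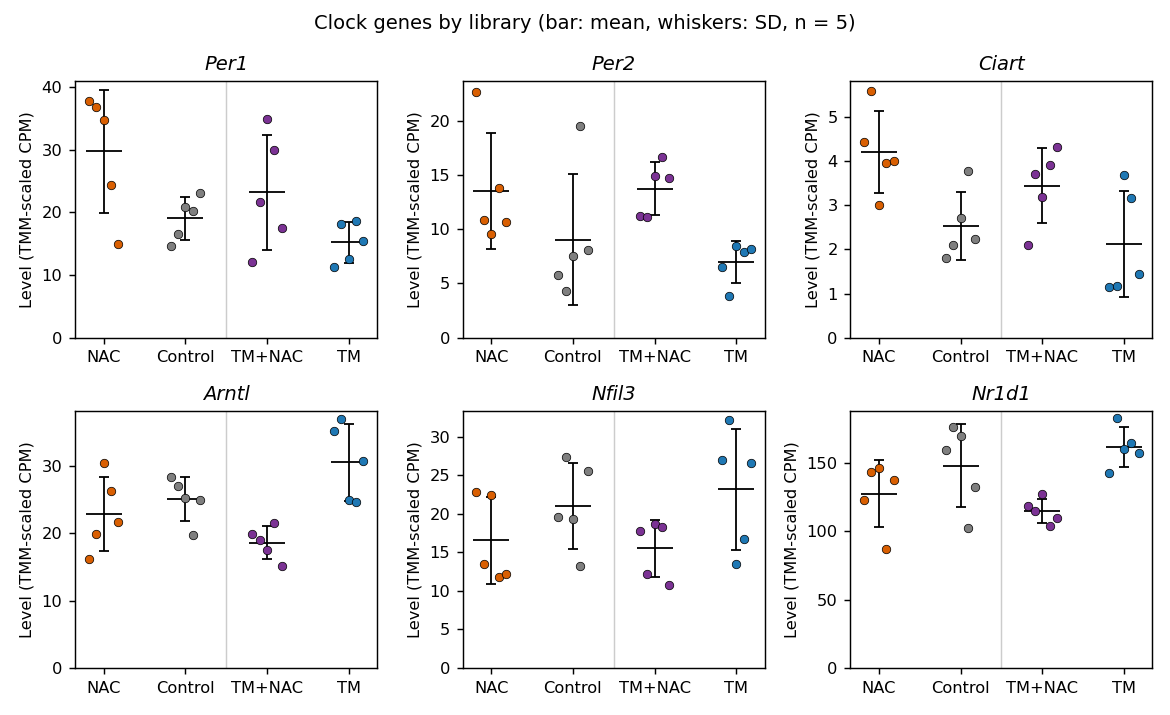
Level (TMM-scaled CPM) of 6 clock genes in each library, with mean and SD (n = 5), in the order NAC, Control, TM+NAC and TM. Per1, Per2 and Ciart are mostly higher and Arntl, Nfil3 and Nr1d1 mostly lower with NAC, with overlap between groups except in Per2, Arntl and Nr1d1 with TM.

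The promoters of Per1 and Ciart are shown because they carry the E-box through which the clock drives the repressors. They span chr11:69098699-69098998 on the plus strand and chr3:95882179-95882478 on the minus strand (RefSeq, GRCm38.p6), and capitals mark matches to the E-box CACGTG and the D-box TTATGNAA on either strand.
Per1: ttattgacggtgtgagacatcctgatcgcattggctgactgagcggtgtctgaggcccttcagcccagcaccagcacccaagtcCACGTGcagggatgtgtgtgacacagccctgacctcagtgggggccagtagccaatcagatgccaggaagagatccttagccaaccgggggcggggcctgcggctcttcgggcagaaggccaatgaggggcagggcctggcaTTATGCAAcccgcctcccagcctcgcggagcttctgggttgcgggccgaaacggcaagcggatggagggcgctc
Ciart: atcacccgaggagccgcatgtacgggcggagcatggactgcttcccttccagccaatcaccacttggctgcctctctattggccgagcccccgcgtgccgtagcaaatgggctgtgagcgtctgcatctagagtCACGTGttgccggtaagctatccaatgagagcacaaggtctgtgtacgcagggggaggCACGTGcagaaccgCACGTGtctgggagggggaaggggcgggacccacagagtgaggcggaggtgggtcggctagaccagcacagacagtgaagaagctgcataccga
Per1 holds 1 E-box and 1 D-box, Ciart holds 3 E-boxes, and no match overlaps another. An E-box stands in 7.15% of 32851 promoters and a D-box in 3.38%. Tef held 1 E-box and Per3 held 2 D-boxes, while the stretches of Dbp, Hlf, Nr1d1, Arntl and Nfil3 held neither. In all, 12 of 15 genes looked up were found in the table.

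Genes of glutathione synthesis, the pathway that NAC's cysteine feeds, and of the glutathione cycle had a pooled median near 0. As a list they lay on opposite sides in the comparisons. Of 18, 13 were below 0 without TM (median -0.09) and 13 above 0 with TM (median 0.03). The largest pooled fold was that of Chac1 (0.49 ± 0.54). Of 18 tested genes of glutathione synthesis and its cycle, 8 had a pooled fold above 0 and 10 below, with a median of -0.01 (-0.04 to 0.01 on leaving out 1 library), and 0 had an unadjusted p under 0.05. Gclc, the catalytic subunit of the limiting enzyme of glutathione synthesis, was at 14.6, 16.6, 18.2, 17.9 and 13.7 CPM in NAC and 14.4, 12.5, 14.3, 17.5 and 15.8 CPM in Control libraries, and at 14.97, 14.5, 14.8, 15.4 and 13.2 CPM in TM+NAC and 16.2, 15.7, 14.1, 14.7 and 17.7 CPM in TM libraries. The groups overlapped throughout, for a pooled fold of 0.01 ± 0.07. Gclc (0.12 without TM and -0.10 with TM) and Gclm (0.03 and -0.0035) had signs opposite to those of most of the list. The modifier subunit Gclm (0.01 ± 0.06), glutathione synthetase Gss (-0.03 ± 0.09), glutathione reductase Gsr (0.07 ± 0.06) and the peroxidases Gpx1 (-0.02 ± 0.07) and Gpx4 (0.01 ± 0.12) had small pooled folds. All of these had opposite signs in the comparisons, such as Gpx1 (-0.15 without TM and 0.10 with TM) and Gpx4 (-0.17 and 0.18). Gpx3, the secreted peroxidase, had the smallest p of the list, at -0.21 ± 0.11 (adjusted p = 0.90), with -0.46 ± 0.14 without TM and 0.03 ± 0.14 with TM. Of 20 tested genes of cysteine, sulfide and taurine metabolism 8 were above 0 and 12 below, with a median of -0.02, and the cystine importer Slc7a11 and the transsulfuration enzymes Cth and Cbs lay under the filter. The 5 superoxide dismutase and catalase genes had a median of -0.04 and the 15 peroxiredoxin and thioredoxin genes one of -0.05, with mitochondrial Prdx3 alone at an unadjusted p under 0.05 (-0.12 ± 0.04, adjusted p = 0.524).

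NRF2 pathway genes leaned to the high side by small amounts. Of 28 tested, 23 had a pooled fold above 0, where 49.8% of all tested genes did, with a median of 0.05, and 11 were above 0 in both comparisons and 0 below in both, against 20.1% and 19.5% of all tested genes. Without TM+NAC 4 the median was 0.04. Within groups, the list median varied between libraries with an SD of 0.05 on the log2 scale. An unadjusted p under 0.05 was reached by Idh1, an NADPH-making dehydrogenase (0.22 ± 0.08), Nqo1, a quinone reductase (0.20 ± 0.08), and Pgd of the pentose phosphate pathway (0.15 ± 0.06), with adjusted p of 0.62, 0.672 and 0.752, so that 3 of 28 were higher at that p, where 2.95% of tested genes were. Nqo1 was at 20.7, 19.6, 20.4, 24.8 and 21.6 CPM in NAC and 19.5, 17.7, 16.3, 22.7 and 16.7 CPM in Control libraries, and at 21.8, 21.6, 17.8, 17.5 and 19.9 CPM in TM+NAC and 19.8, 13.7, 17.8, 19.2 and 15.8 CPM in TM libraries. The groups overlapped in both pairs. Nfe2l2 itself had a fold of 0.03 ± 0.08.

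The glucocorticoid-responsive list held 21 tested genes, of which 16 had a pooled fold above 0 and 6 an unadjusted p under 0.05, all 6 higher (Mt2, Ddit4, Per1, Mt1, Foxo1 and Sgk1), where 2.95% of tested genes were higher at that p. Its median was 0.11 (0.19 without Control 4), and 8 genes were above 0 in both comparisons, against 20.1% of all tested genes. Within groups, this median varied between libraries with an SD of 0.18, so the members' folds are not independent of one another. Ddit4, which restrains mTORC1, was at 8.92, 15.7, 15.1, 6.22 and 4.95 CPM in NAC libraries, against 4.27, 3.58, 6.54, 5.14 and 6.45 CPM in Control libraries. It was at 3.05, 10.1, 13.2, 10.1 and 9.25 CPM in TM+NAC libraries, against 3.63, 7.94, 2.03, 5.71 and 5.16 CPM in TM libraries. The spread within NAC and TM+NAC was wide, and the fold of 0.93 ± 0.26 did not pass (adjusted p = 0.262). Sgk1, a kinase induced by corticosteroids, was at 0.62 without TM and -0.06 with TM on the log2 scale. Of other well known members, Fkbp5 (-0.04 ± 0.26, a wide error), Klf15 (0.03 ± 0.09) and the receptor Nr3c1 (0.04 ± 0.09) had folds within their standard error of 0. Tsc22d3 was higher in both comparisons (0.15 ± 0.09 pooled), and Zbtb16 was lower in both (-0.31 ± 0.16 pooled).

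Most collagen and matrix genes had pooled folds above 0. Of 28 tested, 27 were above 0 (49.8% of all tested genes) and 23 were above 0 in both comparisons (20.1% of all), with a median of 0.18 (0.16 without TM and 0.19 with TM), and 7 had an unadjusted p under 0.05, all higher (2.95% of all). With the brain sum as a term the median was 0.30, and in libraries with brain transcripts, TM+NAC against TM, it was 0.36. No member passed the pooled test. Of the 7, Lox (log2 fold 0.25 without TM and 2.69 with TM), Fn1 (0.06 and 1.24), Timp1 (0.35 and 3.36) and Thbs1 (-0.10 and 2.54) were higher mainly with TM. Col5a2 (0.35 and 0.58), Sparc (0.19 and 0.37) and Col5a1 (0.15 and 0.43) were above 0 in both comparisons. Within groups, the list median varied between libraries with an SD of 0.26 on the log2 scale, so the members' folds are not independent of one another. The summed level was 1726 to 2118 CPM in NAC and 1005 to 2003 CPM in Control libraries. It was 1853 to 2406.5 CPM in TM+NAC and 1323 to 2402 CPM in TM libraries, and both pairs overlapped. Col5a2, a chain of the fibril-nucleating collagen V, was at 26.03, 25.7, 27.02, 28.9 and 26.9 CPM in NAC libraries, against 20.8, 20.9, 26.2, 12.9 and 24.99 CPM in Control libraries. It was at 28.2, 30.3, 33.5, 35.5 and 38.5 CPM in TM+NAC libraries, against 31.4, 23.6, 18.3, 19.4 and 18.7 CPM in TM libraries. TM 1 (31.4 CPM) and Control 3 (26.2 CPM) overlapped the libraries with NAC, and the fold of 0.46 ± 0.11 did not pass (adjusted p = 0.177). Collagen I and III chains had folds of 0.38 ± 0.24 (Col1a1), 0.36 ± 0.21 (Col1a2) and 0.23 ± 0.14 (Col3a1), and none of these reached an unadjusted p under 0.05. Markers of fibroblasts and fibro-adipogenic progenitors lay on the same side as this list, with 9 of 11 above 0 and a summed level of 999 to 1141 CPM in NAC and 642 to 1227 CPM in Control libraries, and 941 to 1308 CPM in TM+NAC and 805 to 1235 CPM in TM libraries. Their part in the matrix values was not tested.

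Lox, a copper enzyme that cross-links collagen and elastin fibres, had the same sign in both comparisons but not the same size. It was at 7.90, 4.53, 10.02, 8.05 and 5.34 CPM in NAC libraries, against 4.20, 5.19, 9.80, 4.36 and 6.596 CPM in Control libraries. It was at 33.7, 39.6, 39.9, 36.8 and 67.8 CPM in TM+NAC libraries, against 10.6, 5.31, 7.17, 6.23 and 4.45 CPM in TM libraries. Groups overlapped without TM and were wide apart with it. The fold was 0.25 ± 0.27 without TM and 2.69 ± 0.28 with TM, and Lox was the 1 gene of 9696 (0.0103%) whose NAC effect differed between them (difference 2.44, adjusted p = 0.0287). That call held in 8 of 20 fits that left out 1 library (adjusted p 0.00669 to 0.105), whereas the fold with TM passed in all 20. The pooled fold of 1.49 ± 0.35 (adjusted p = 0.161) lies between those of the pairs. Fn1 (0.06 ± 0.17 without TM, 1.24 ± 0.17 with TM) had the same form, and Thbs1 had opposite signs (-0.10 ± 0.34 and 2.54 ± 0.35), though their differences did not pass (adjusted p = 0.287 and 0.11).

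On the low side, Avil and Nmnat1 had the smallest p. Avil, an actin-binding protein of the villin family known from sensory neurons, was at 7.42, 10.3, 8.09, 9.53 and 10.3 CPM in NAC libraries, against 14.3, 17.6, 12.3, 9.14 and 14.5 CPM in Control libraries. It was at 12.9, 7.81, 7.90, 8.42 and 6.70 CPM in TM+NAC libraries, against 15.2, 15.1, 11.03, 11.7 and 12.2 CPM in TM libraries. A single library kept each pair from separating, Control 4 (9.14 CPM) in one and TM+NAC 1 (12.9 CPM) in the other. The folds were -0.57 ± 0.17 without TM and -0.58 ± 0.17 with TM, and the pooled fold of -0.57 ± 0.12 did not pass (adjusted p = 0.0834), though it did in 3 of 20 fits that left out 1 library (adjusted p 0.0278 to 0.196). Tsfm, a tested gene on the opposite strand, overlaps 4.9% of the Avil exon bases. Nmnat1, the nuclear enzyme of the last step of NAD synthesis, was at 12.4, 13.2, 12.5, 13.2 and 12.6 CPM in NAC libraries, against 14.1, 16.8, 13.3, 17.96 and 14.9 CPM in Control libraries. It was at 14.7, 12.3, 11.4, 11.1 and 12.3 CPM in TM+NAC libraries, against 16.5, 16.9, 13.8, 13.6 and 16.1 CPM in TM libraries. All NAC libraries were below all Control libraries, and TM+NAC 1 alone overlapped the TM group. The pooled fold of -0.29 ± 0.07 did not pass (adjusted p = 0.149). DESeq2 called both lower (adjusted p = 0.00286 and 0.0151).

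Among the genes on the low side were stomach genes, which muscle is not known for. Pgc encodes the stomach protease precursor progastricsin, and it was at 0.128, 0.253, 6.00, 0.166 and 0.179 CPM in NAC libraries, against 7.13, 13.5, 0.229, 0.272 and 20.6 CPM in Control libraries. It was at 0, 0.0478, 0.170, 0.196 and 0.110 CPM in TM+NAC libraries, against 10.2, 3.30, 7.72, 1.93 and 4.90 CPM in TM libraries. NAC 3 was the 1 library with NAC above 1 CPM, Control 3 and Control 4 were below 1 CPM as well, and all TM libraries were above all TM+NAC libraries. The pooled fold was -3.79 ± 0.88 and did not pass (adjusted p = 0.161). Gkn2, a gastrokine secreted by the stomach lining and chosen after its values were seen, was in the same libraries, at 0, 0, 1.53, 0 and 0 CPM in NAC and 2.77, 4.78, 0, 0.0543 and 5.59 CPM in Control libraries. It was listed at 0 in all TM+NAC libraries and at 3.23, 0.491, 2.03, 0.718 and 0.999 CPM in TM libraries.

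Energy metabolism lists lay below 0 in the pooled fit, and only in part was this shared by both comparisons. Of all tested genes, 49.8% were above 0 pooled, 19.5% were below 0 in both comparisons and 3% were lower at an unadjusted p under 0.05. Of 21 tested TCA cycle genes, 20 were below 0 pooled and 13 in both comparisons, with a median of -0.07, and citrate synthase Cs (-0.08 ± 0.04) and Suclg2 (-0.13 ± 0.05) had an unadjusted p under 0.05 (adjusted p = 0.795 and 0.672). Slow and oxidative fibre genes were below 0 in 15 of 16 cases pooled and in 10 in both comparisons, with a median of -0.17, led by the slow myosin Myh7 (-0.49 ± 0.27), and 0 had an unadjusted p under 0.05. That median was -0.11 without NAC 4 or without Control 2, -0.26 without TM+NAC 3 and -0.03 in libraries with brain transcripts. Complex I genes were below 0 in 37 of 39 cases pooled, but their median was -0.28 without TM and 0.06 with TM. In both comparisons 7 were below 0, near the share of all tested genes. The pooled median of complex I, -0.10, was -0.03 without NAC 4, -0.05 without Control 2, -0.06 without TM 5, -0.30 with the brain sum as a term and 0.02 in libraries with brain transcripts. All 13 protein-coding mitochondrial genes were below 0 pooled, with medians of 0.01 without TM and -0.25 with TM, and their pooled median of -0.13 was -0.21 without NAC 4, -0.08 without TM 2 and 0.04 with the brain sum as a term. Cytosolic ribosomal protein genes had medians of -0.18 without TM and 0.12 with TM, which gave a pooled median of -0.03 that changed sign without Control 1, Control 2 or NAC 4. No member of these lists passed the test. Within groups, the list medians varied between libraries on the log2 scale, so the members' folds are not independent of one another. The SD was 0.04 for TCA cycle, 0.35 for slow fibre, 0.21 for complex I, 0.20 for mitochondrial and 0.18 for ribosomal protein genes. In NAC 4, mitochondrial transcripts took 20.3% of counts, the highest share of any library, against 13.5 to 15.4% in the other NAC libraries.

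**Figure D5:**
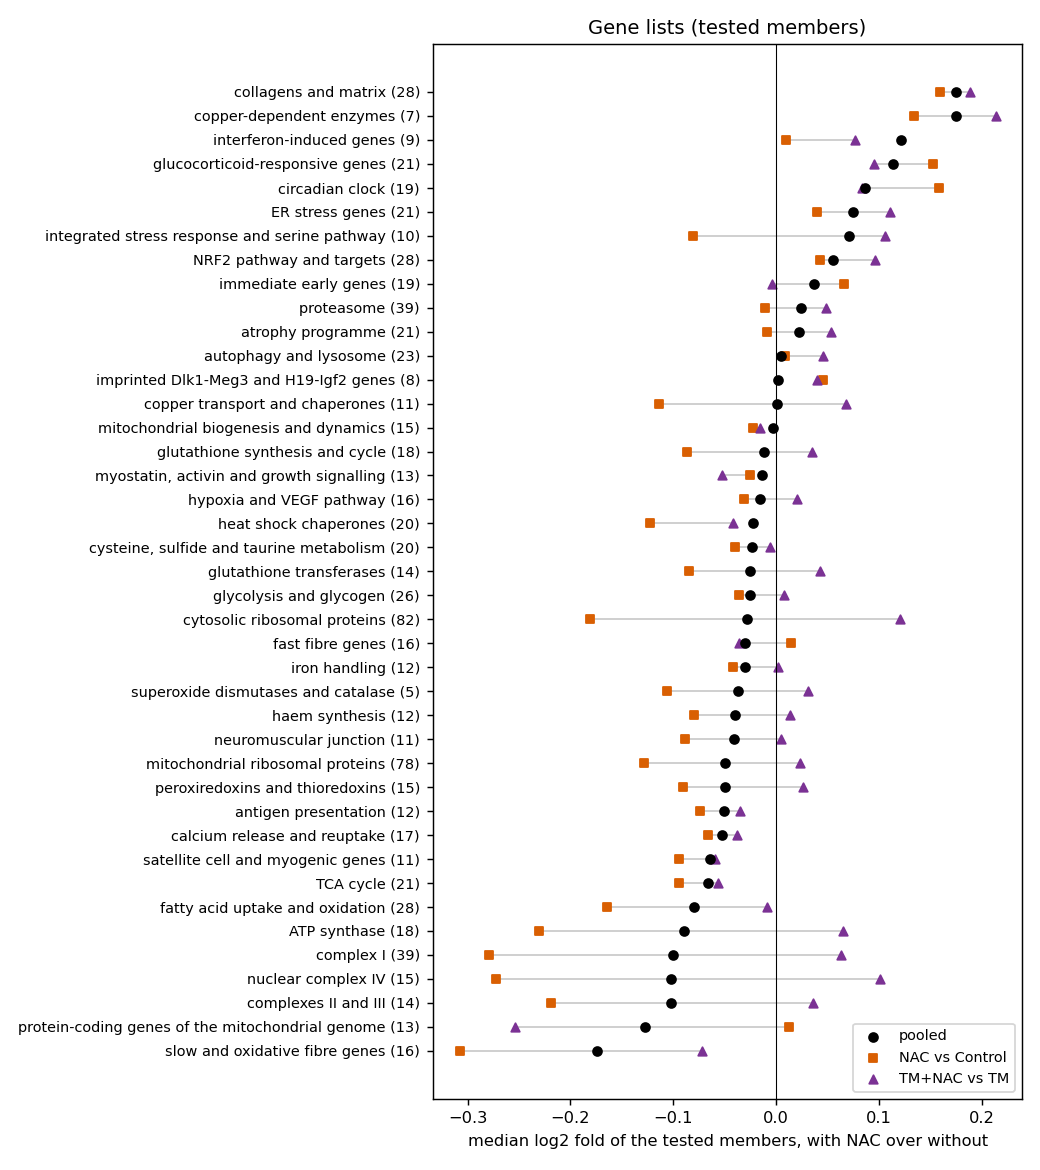
Median log2 fold of the tested members of gene lists (number tested in brackets), pooled (black), NAC over Control (orange squares) and TM+NAC over TM (purple triangles). Lists of other cell types and lists with few tested members are not shown. A list of inflamed stromal genes is also left out, with medians of 1.26 pooled, 0.06 without TM and 2.54 with TM. Collagen, glucocorticoid-responsive, clock and NRF2 lists lie right of 0 in both comparisons, slow fibre and TCA cycle lists left of 0 in both, and respiratory complex and ribosomal protein lists on opposite sides.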

How the data were processed

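Poly(A)-selected RNA from 20 gastrocnemius libraries was sequenced after preparation with a strand-marking (dUTP) kit, per the labels' protocols. For 31618 genes the authors deposited, per the file headers, a count and an FPKM value in each library. The deposited counts are whole and not normalized, and the deposited FPKM values carry a scaling by transcript length and library depth. The submitters' processing notes name cutadapt 1.9, FastQC, HISAT2 2.2.1, StringTie and the build GRCm38. Which program counted reads, with which strand setting and annotation, is not given in the sources used here. Gene positions are those of GENCODE M21 (GRCm38).

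Each library's treatment label gave its group. The filter kept genes averaging 1 FPKM or more (9696, holding 98.2 to 98.7% of counts). Counts were TMM-scaled and fitted with the edgeR 4.0.16 quasi-likelihood test in R 4.3.3, with TM and NAC as additive terms for the pooled effect, and with the 4 groups for the effects without TM, with TM and their difference. Standard errors are the fold divided by the square root of F. Tests were two-sided, p-values were adjusted over all 9696 genes by Benjamini-Hochberg, and values under 0.05 count as passing. Within groups, libraries differed beyond sampling noise in every pair (chi-square per degree of freedom 22.9 or more).

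The comparison, the 62 gene lists and the tests were chosen with earlier results of these data known, and no pattern is offered as independent support. Named were up to 12 genes a direction passing with the same sign in both comparisons, or the 3 of smallest p where fewer than 3 passed, the same choice without brain-pattern genes and members of the neural and choroid plexus lists, up to 6 genes a direction separated in both comparisons, up to 4 members of each list and any that passed, a fixed set of 30 genes, and the 2 genes a direction with the smallest p of the difference. Fgf7, Arl6ip1, Stmn1, Synj1, Gkn2, Prlr, the remaining clock genes and list members beyond 4 were chosen after their values were seen. The planned division of libraries by a sum of neural genes was led by genes that muscle expresses, so a list of 16 brain-restricted genes, chosen after the data were seen, replaced it. The brain sum as a term and the fit on libraries with brain transcripts were added at the same stage. Promoters came from RefSeq (GRCm38.p6). Some items are not reported here.

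Alternatives were DESeq2 1.42.0, limma 3.58.1 on log2(FPKM + 1) and on log2(FPKM + 0.1), limma voom with library weights, no filter, a filter at 5 FPKM, median-ratio scaling, no scaling factor, the mean of both comparisons, the replicate number as a block, leaving out each library, and leaving out TM 1 and NAC 4.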

Additional observations from a re-analysis of the deposited data

Results flagged for a closer look

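In 256 sets of 5 libraries of 1 group (63 of the named genes, leaving out those named only as members of a list, and the brain sum), a library at the end of its group's range was tested for a gap too wide for the others, which chance gives in about 1 in 20 sets. NAC 4 stood apart most often. It was low in the summed brain-restricted genes (4.53 CPM), in Ttr (0 CPM), Meg3 (28.2 CPM), the brain-enriched noncoding RNA Snhg11 (1.20 CPM), the sulfurtransferase Mpst (23.7 CPM) and Keap1 (47.7 CPM). It was high in Mstn (142 CPM), which restrains muscle growth, and in the clock gene Nr1d2 (198 CPM). TM 1 was low in the brain sum (7.17 CPM) and in Snhg11 (0.574 CPM), and Control 5 was high in the brain sum (10.9 CPM).

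Control 4 was high in Per2 (19.5 CPM), Per3 (31.7 CPM), Mt1 (11.1 CPM), Nfe2l2 (47.7 CPM) and Mstn (121 CPM). Control 3 was high in Gpm6b (8.56 CPM), Clock (38.7 CPM) and Bhlhe40 (136 CPM). Control 2 was low in Hlf (10.3 CPM), and Control 5 was low in Csnk1e (34.7 CPM). TM 5 was low in Enpp2 (13.1 CPM), and TM 3 was high in Gsr (19.1 CPM).

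Among the other libraries with NAC, NAC 3 was high in the stomach genes Pgc (6.00 CPM) and Gkn2 (1.53 CPM), NAC 5 was high in Gpx3 (134 CPM) and NAC 2 in Bhlhe41 (69.3 CPM). TM+NAC 5 was high in Mt2 (8.43 CPM) and Lox (67.8 CPM), and TM+NAC 1 was high in Avil (12.9 CPM). The NAC fold of Lox was larger with TM than without by 2.44 on the log2 scale, by the test of the difference itself (adjusted p = 0.0287).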

How the results depend on the processing

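Of 259 named genes, 69 changed sign in 235 of 8425 alternative values, none of them called in either fit. Enpp2 passed in the 32 alternatives that tested it. A filter at 5 FPKM leaves it out (4189 genes tested, 0 calls for all 4 comparisons), and asking for an absolute log2 fold of at least 0.5 as well drops it alone, leaving 3 calls. The pooled count of 4 became 40 with DESeq2, 30 with voom weights, 13 with limma on log2(FPKM + 1), 9 with log2(FPKM + 0.1), 11 with no filter, 9 with no scaling factor, 30 as the mean of both comparisons, 39 without TM 1 and NAC 4, and 9 in libraries with brain transcripts, where it rests on TM+NAC against TM alone. It stayed at 4 with median-ratio scaling. For NAC without TM, 21 calls became 38 with DESeq2, 34 with voom weights, 2 and 3 with limma at a pseudocount of 1 and 0.1, 439 with no filter and 45 without TM 1 and NAC 4. For NAC with TM, 3 calls became 19 with DESeq2, 6 with voom weights, 6 and 7 with limma at 1 and 0.1, 21 with no filter, 9 in libraries with brain transcripts and 7 without TM 1 and NAC 4. For the difference, 1 call became 9 with DESeq2, 6 with voom weights, 3 with limma at 1, 7 with no filter and 23 without TM 1 and NAC 4. With the brain sum as a term, the counts were 5 pooled, 3020 without TM, 5 with TM and 1474 for the difference. Without TM, all Control libraries and, of the NAC libraries, only NAC 4 had a low sum, so the counts without TM and for the difference lean on NAC 4. Leaving out 1 library gave 1 to 43 pooled calls, 4 to 41 without TM, 3 to 6 with TM and 0 to 7 for the difference, with the highest pooled, without TM and difference counts without NAC 4. Where not stated, the cause was not tested. In libraries with brain transcripts no Control library is left, so the effect without TM and the difference have no value there.

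The replicate number as a block gave 5 pooled calls (Chd3, Enpp2, Gpm6b, Stmn1 and Synj1), 10 without TM, 3 with TM and 0 for the difference. The numbers share only a name: same-numbered libraries of different groups correlated at -0.27 to 0.38 in their deviations from the group means, over 0.1 in 11 of 30 pairs, and best with their own number in 7 of 30.

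Medians of gene lists moved by less than their residual spread in 1905 cases and by more in 39, and 180 of the 1944 changed sign. At the median depth, 1 CPM stood for 63.3 counts.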

Other observations

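Of 21 tested genes of endoplasmic reticulum stress, 16 had a pooled fold above 0 and 11 were above 0 in both comparisons (20.1% of all tested genes were), with a median of 0.08. At an unadjusted p under 0.05 were 2, both higher, where 2.95% of all tested genes were higher. Of 17 tested genes of calcium release and reuptake, 13 were below 0 pooled and 8 in both comparisons (19.5% of all tested genes were), with a median of -0.05 and 0 at an unadjusted p under 0.05. Within groups, the medians of both lists varied between libraries with an SD of 0.06. Among atrophy genes 11 of 21 were above 0, and Mstn, Fbxo32 and Trim63 had pooled log2 folds of 0.13 ± 0.13, -0.31 ± 0.20 and -0.12 ± 0.12, none of which passed (adjusted p = 0.999, 0.986 and 0.999). Adipocyte markers were above 0 in 9 of 11 cases, with a summed level of 2465 to 3251 CPM in NAC and 1936 to 3507 CPM in Control libraries, and 2373 to 2868 CPM in TM+NAC and 2277 to 2834 CPM in TM libraries. These groups overlapped.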
